A study of Talpa occidentalis with 2 samples.

Results

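The genes described here are those named as cytosolic ribosomal proteins in the gene annotation of the Iberian mole, Talpa occidentalis, build talOcc3, which accompanies a study of contacts of the FGF9 promoter. A model was taken when its name, without a copy suffix, was an RPL or RPS symbol followed by a number and optional letter (which also takes paralogs such as RPL22L1), or RPSA or RPLP0 to RPLP2. This took 514 of 23336 gene models, under 79 of 16075 distinct symbols. The study itself measured chromatin contacts by 4C-seq in 2 wild-type libraries of embryonic day 15, 1 from forebrain and 1 from hindlimb, with the FGF9 transcription start as viewpoint. No value below belongs to either library: 4C contacts were not analysed here, their depth is unknown, and every count describes the annotation of 1 genome, without replicates and without a test.

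Ribosomal proteins form the small and the large subunit of the ribosome around ribosomal RNA, and every dividing cell makes them in quantity. In mammals each protein is as a rule encoded by a single gene with introns, scattered over the chromosomes, and some of those introns carry small nucleolar RNA genes. Messenger RNAs of such genes can be copied back into DNA by the reverse transcriptase of LINE elements and inserted elsewhere, which leaves copies without introns, called processed pseudogenes or retrocopies. In an annotation built from aligned sequences such copies can appear as models with 1 coding exon. The number of coding exons was therefore counted for every model. Whether a given single-exon model is a retrocopy was not tested, since no sequence was used here.

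Most of the ribosomal protein models lacked introns. Of the 514 models, 405 (78.8%) had 1 coding exon, 35 (6.81%) had 2 and 74 (14.4%) had 3 or more, while 19.4% of all 21076 models with a symbol had 1. At least 2 models were found for 69 of the 79 symbols (87.3%), where the share over all 16075 symbols was 14.6%. A single-exon model was present for 68 symbols (86.1%), against 13.4% over all symbols, and 38 symbols (48.1%) had at least 5 models, against 1.34%. A model of 3 or more coding exons existed for 65 symbols (82.3%), close to the 86.5% of all symbols. Ribosomal proteins thus made up 0.491% of the symbols and 9.89% of the single-exon models that carry a symbol. The annotation's programs divide along the same line: exonerate, a sequence aligner, made 363 of the 405 single-exon models and ALN the other 42. EVM, which combines evidence, made 60 of the 74 models with 3 or more coding exons and 0 of the single-exon ones. The programs behind other models were not counted, so this division need not be particular to ribosomal proteins.

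**Figure D1:**
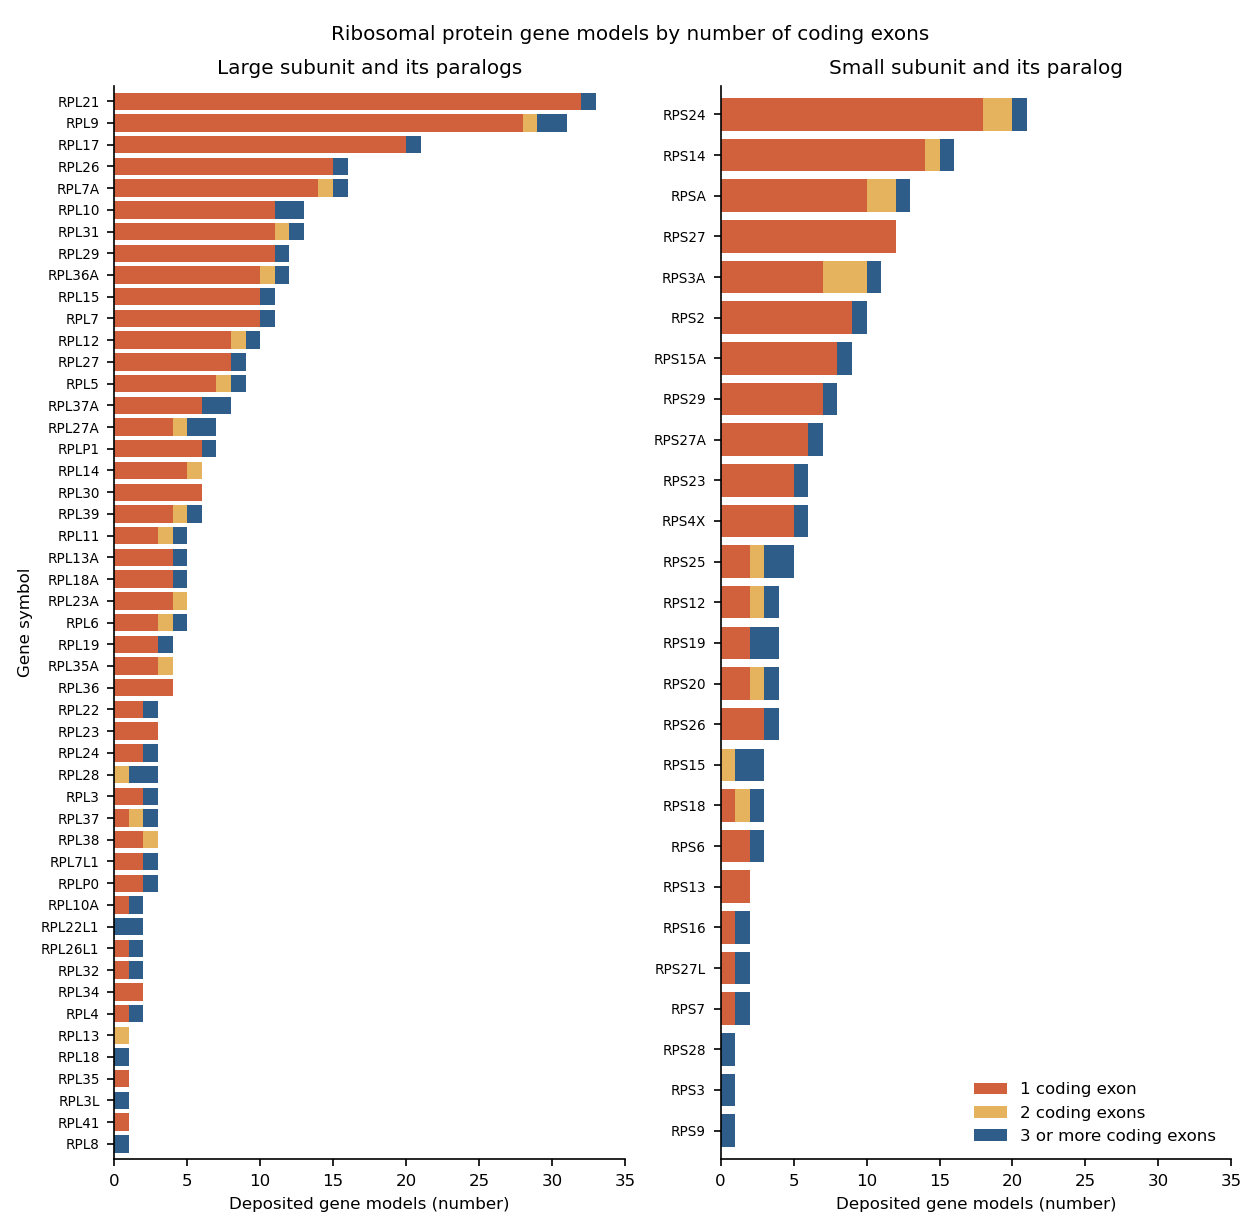
Horizontal bars give the number of deposited models of 75 of the 79 ribosomal protein symbols, large subunit and its paralogs on the left, small subunit and its paralog on the right, split into models with 1, 2, and 3 or more coding exons. RPL21 reaches 33 models and RPL9 31, and most symbols hold a single model with 3 or more coding exons whatever their total.

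The large subunit contributed 45 symbols with 331 models, of which 275 had 1 coding exon, or 6.11 per symbol. RPL21, a large subunit protein, led with 33 models on 24 scaffolds, 32 of them single-exon and 1 with 5 coding exons. RPL9, another large subunit protein, followed with 31 models on 22 scaffolds, of which 28 were single-exon. RPL17, which lies near the exit of the peptide tunnel, had 21 models on 15 scaffolds, of which 20 were single-exon. RPL26 and RPL7A, also of the large subunit, had 16 each, with 15 and 14 single-exon models. RPL10, a protein added late in the assembly of the large subunit, and RPL31 had 13 models each, 11 of them single-exon for both.

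The small subunit contributed 29 symbols with 173 models, of which 126 had 1 coding exon, or 4.34 per symbol. RPS24, a gene mutated in some patients with the human blood disease Diamond-Blackfan anaemia, had 21 models on 14 scaffolds, of which 18 were single-exon. RPS14, whose loss is part of the human 5q deletion syndrome of the bone marrow, had 16 models, 14 of them single-exon. RPSA, also known as the laminin receptor precursor, had 13 models, 10 of them single-exon. The 10 symbols with most models, which are those named in this and the preceding paragraph, held 193 of the 514 models (37.5%) and 173 of the 405 single-exon models (42.7%). The median symbol had 4 models, of which 3 had 1 coding exon.

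At the other end, 10 symbols had exactly 1 model. In 7 of them, among these RPL3L, RPL8, RPL18, RPS3, RPS9 and RPS28, that model had 3 to 9 coding exons, and no single-exon copy was annotated. RPS3, which lines the entry of the messenger RNA channel, had 9 coding exons and 723 coding bases. RPS28, the shortest of the 7, had 3 coding exons and 210 coding bases. The other 3 were RPL13, with 2 coding exons, and RPL35 and RPL41, with 1 each. RPL41 encodes the smallest ribosomal protein, and its model had 75 coding bases, the least of all single-exon models here.

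Ribosomal proteins were set beside 4 other groups of housekeeping genes of the same annotation. Mitochondrial ribosomal proteins, which are encoded in the nucleus and build the ribosome of the mitochondrion, had 24 single-exon models over 69 symbols, or 0.348 per symbol, against 5.13 for the cytosolic ribosomal proteins. Translation factors had 0.407 per symbol over 59 symbols, and 11 of their 24 single-exon models belonged to EEF1A1, the elongation factor that brings transfer RNA to the ribosome. Proteasome subunits had 0.359 over 39 symbols, and respiratory chain genes 0.680 over 75. All other symbols together had 0.231. A single-exon model was present for 86.1% of ribosomal protein symbols, against 24.6% of mitochondrial ribosomal protein, 18.6% of translation factor, 25.6% of proteasome and 37.3% of respiratory chain symbols. The groups were chosen by name pattern and the differences were not tested.

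**Figure D2:**
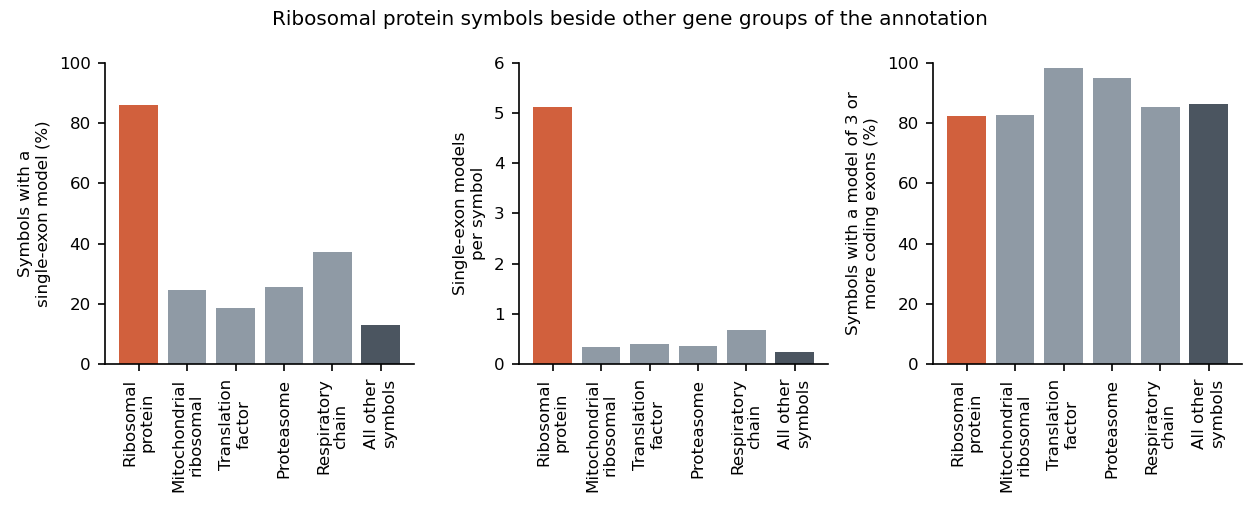
Bars give, for ribosomal proteins, 4 other gene groups and all other symbols, the percentage of symbols with a single-exon model, the number of single-exon models per symbol and the percentage of symbols with a model of 3 or more coding exons. Ribosomal proteins reach 86.1% and 5.13 per symbol in the left and middle panels, and their 82.3% in the right panel lies below every other group.

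Among the symbols that have both a model of 3 or more coding exons and single-exon models, RPL21 stood in place 3 of the whole annotation by number of single-exon models, after the mitochondrial gene name COX1 with 79 and the olfactory receptor name OR14A16 with 44. RPL9 stood in place 5 and RPL17 shared place 6. Of the 1907 single-exon models of such symbols, 359 (18.8%) were ribosomal protein models.

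Next, the length of the single-exon models was compared with that of the other models of their symbol. Coding length was at least 90% of the longest model of the symbol in 185 of 405 single-exon models (45.7%) and at least 50% in 340 (84.0%). The longest model is not always a good measure, since some multi-exon models run past the usual coding sequence: RPL13A had a model of 14 coding exons and 2175 coding bases, while its 4 single-exon models had 312, 577, 604 and 608. RPL9 shows the same, with a 6-exon model of 831 bases, RPL9_copy28, beside the 6-exon RPL9 of 579. None of the 28 single-exon RPL9 models came to 90% of 831 bases, but 23 came to 90% of 579. Models of 3 or more coding exons can also be short, which makes 90% easier to reach. RPLP1_copy7 had 228 bases, where the single-exon RPLP1 models had 336 to 351. Of 14 single-exon RPL7A models, 9 reached 90% of its 576-base intron-containing model, and 2 reached 90% of the longest RPL7A model. Measured against the best-scoring model of 3 or more coding exons, 185 of 359 (51.5%) reached 90%. Against the longest such model it was 162 of 359 (45.1%), where over all symbols the share was 25.9%. It was 20 of 40 (50%) for respiratory chain genes, 5 of 17 (29.4%) for mitochondrial ribosomal proteins, 2 of 11 (18.2%) for proteasome subunits and 2 of 24 (8.33%) for translation factors, so the groups spread to both sides of the ribosomal proteins.

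Some single-exon models of 1 symbol had exactly the same length. Of the 405, 132 (32.6%) shared their coding length with another single-exon model of their symbol. The same share was not counted for other symbols, so it is not known whether ribosomal proteins differ in it. Of 32 single-exon RPL21 models, which had 177 to 484 coding bases with a median of 479, 14 had 480. Of 28 single-exon RPL9 models, with 252 to 577 bases, 13 had 576, and of 20 RPL17 models, with 201 to 566 bases, 6 had 558. All 7 single-exon models of RPS29, a zinc-binding small subunit protein, had 177 bases and scored from 90.5% to 100% of the best RPS29 model, whose scores can be compared only within a symbol. The 12 RPS27 models, all single-exon, had 250 to 276 bases. RPS24 was less uniform: its 18 single-exon models had 174 to 432 bases, no more than 2 had the same length, and only 3 scored at least 90% of the best.

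**Figure D3:**
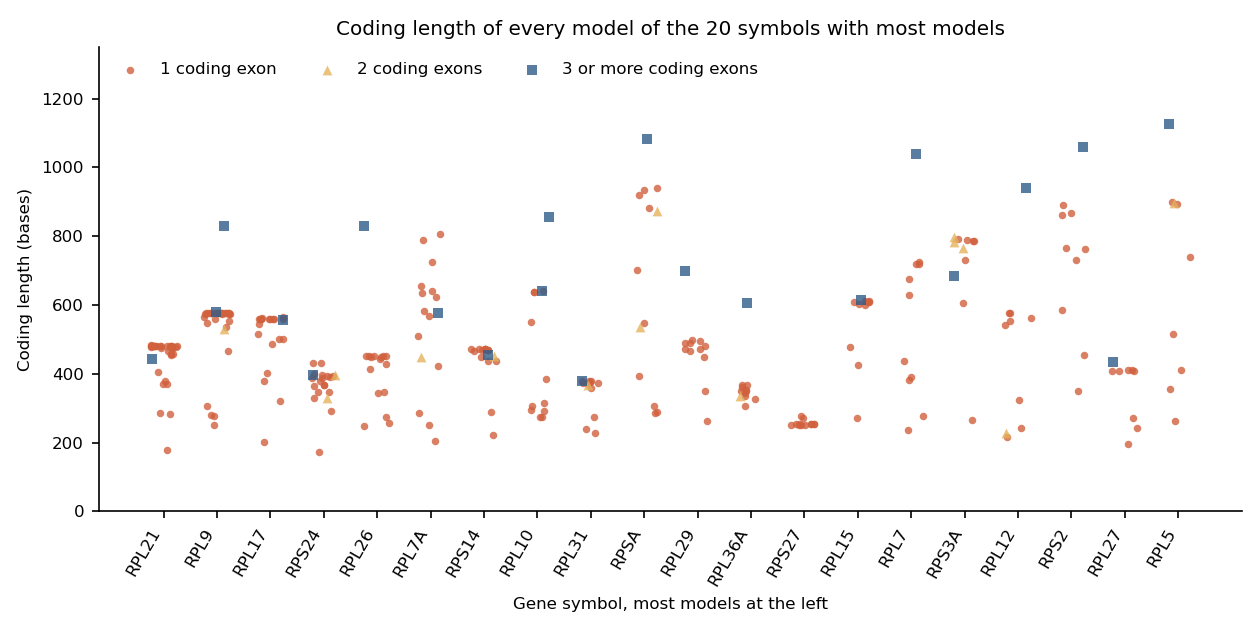
Each point is 1 model of the 20 symbols with most models, placed by its coding length in bases, with circles for 1 coding exon, triangles for 2 and squares for 3 or more. The circles of RPL21, RPL9 and RPL17 crowd at 480, 576 and 558 bases with a tail of shorter models, and the squares of RPL26, RPL7 and RPL12 lie above all circles of their symbol.

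A complete coding sequence has a length that is a multiple of 3. A partial model can begin or end inside a codon, so its length does not tell whether its frame is intact. Frames were not read, since no sequence was used. Lengths were multiples of 3 in 264 of 405 single-exon ribosomal protein models (65.2%), against 73% of all single-exon models, in 20 of 35 with 2 coding exons (57.1%) and in 70 of 74 with 3 or more (94.6%). All single-exon models include genes that have no intron-containing model. Among single-exon models of symbols that also have a model of 3 or more coding exons, the share was 64.1% for ribosomal proteins, 65.0% for respiratory chain genes and 66.0% for all other symbols, so the ribosomal protein models did not stand apart there. Among the single-exon models, the share was 66.5% for the 185 at 90% or more of the longest model and 64.1% for the 220 shorter ones. It was 21 of 32 for RPL21, 18 of 28 for RPL9, 13 of 20 for RPL17 and 12 of 18 for RPS24. For RPS4X, which encodes a small subunit protein from the X chromosome in mammals, only 1 of 5 was, with lengths of 798 to 800 bases. All 60 EVM models with 3 or more coding exons had lengths that were multiples of 3, so part of the difference between exon classes runs along the program that made the models, and its part in the result was not tested.

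The matched part of the target transcript, which the annotation records for every model, tells which end a short model lacks. Against the outermost ends that models of the same symbol reached on the same target, 248 of 405 single-exon models (61.2%) matched at least 90%, and 157 matched less. This measures a model only against the range that models of its symbol reached, and 64 of 79 symbols match a single target while the others match several. A model alone on its target matches in full by construction, as RPL6_copy5 with 289 bases and 23.8% of the best score does. Without the 9 single-exon models of that kind, 239 of 396 (60.4%) matched at least 90%, and the 157 included none of them. Of the 157, 63 lacked more than 30 bases at the 5′ end only, 31 at the 3′ end only and 50 at both ends. The median missing length was 94 bases at the 5′ end and 32 at the 3′ end. Matched parts were not counted for other symbols, so these values need not be particular to ribosomal proteins. With the ends set by single-exon models only, an alternative chosen after seeing the data, 131 models matched less than 90%. Of these, 38 lacked only the 5′ end and 32 only the 3′ end, with median missing lengths of 64 and 54 bases. Of the 157, 86 lacked more bases at the 5′ end than at the 3′ end, and 71 lacked more at the 3′ end. With ends set by single-exon models only, 58 of the 131 lacked more at the 5′ end and 73 at the 3′ end. The excess at the 5′ end was thus smaller with these ends by only-missing ends and median lengths. By the end that lacked more bases, it was reversed. These ends give another set of models, and the cause of the excess was not tested.

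Deposited scores placed many single-exon models close to the best model of their symbol. The median score was 88.6% of the best, 185 of 405 (45.7%) scored at least 90% of it and 80 (19.8%) less than 50%. In 46 of 79 symbols the best score belonged to a model with 3 or more coding exons, in 31 to a single-exon model and in 2 to a model with 2. Single-exon models that scored best of their symbol are among the 185 by construction. The median and the shares therefore do not measure closeness to an intron-containing model. They were not counted for other symbols either. In 18 of the 65 symbols that have a model of 3 or more coding exons, a single-exon model scored best and carried the plain symbol. These are not 2 separate observations, since the plain symbol went to a best-scoring model of each ribosomal protein symbol. Among them were RPL3, RPL11, RPL21, RPL26, RPL26L1, RPL37A, RPL39, RPLP1, RPS2, RPS3A, RPS7, RPS14, RPS23, RPS24, RPS29 and RPSA. For RPL11, whose protein binds the p53 regulator MDM2 when ribosome assembly fails, the plain symbol stands for a model of 1 coding exon and 534 bases, and RPL11_copy2 for the one with 5 coding exons and 504 bases. A search of the annotation by plain symbol thus returns an intronless model for these genes. How often the same holds for other symbols was not counted, so it need not be particular to ribosomal proteins.

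The single-exon models were scattered. They lay on 69 scaffolds, and 348 of 359 (96.9%) lay on another scaffold than the longest intron-containing model of their symbol, where over all symbols the share was 89.5%. Other groups had shares in the same range, with 16 of 17 (94.1%) for mitochondrial ribosomal proteins, 22 of 24 (91.7%) for translation factors, 11 of 11 for proteasome subunits and 38 of 40 (95%) for respiratory chain genes. On the 41 scaffolds of at least 10 Mb, which held 366 of the 405, the number of single-exon models followed scaffold length, with a Spearman rank correlation of 0.872 over 41 scaffolds, and followed the number of other gene models less closely, with a rank correlation of 0.646. For ribosomal protein models of 3 or more coding exons, the rank correlation was 0.500 with length and 0.659 with the number of models. These correlations share the scaffolds and their lengths, and they are descriptions. Density ran from 0 to 4.13 single-exon models per 10 Mb, with a median of 1.93, and scaffold 38, which carries FGF9, was the densest of the 41 with 6 on 14.5 Mb. Scaffolds 33, 39 and 41 had 0.

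**Figure D4:**
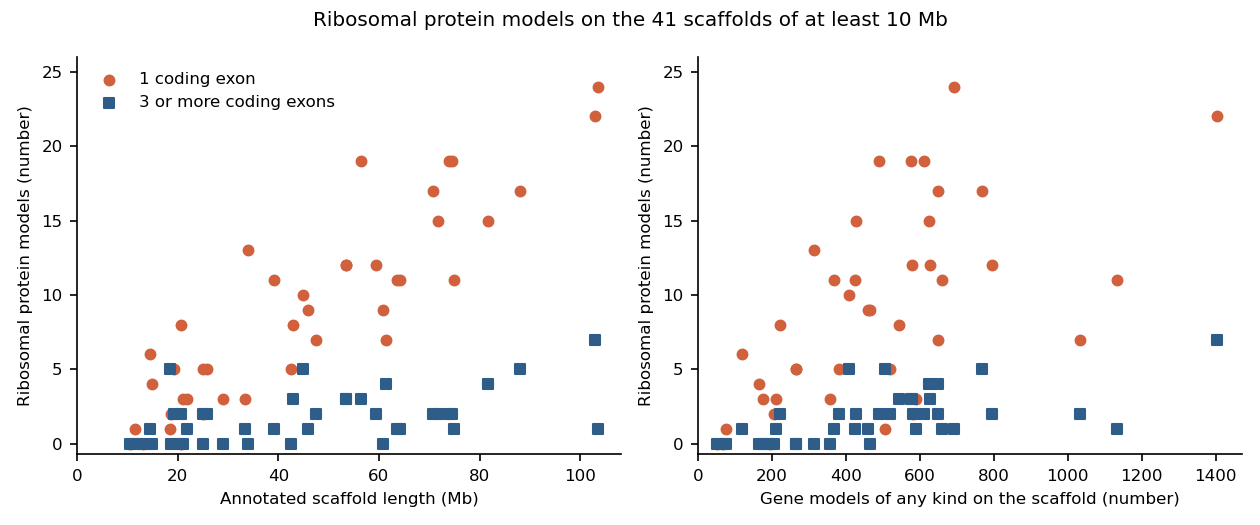
Each point is 1 of 41 scaffolds of at least 10 Mb, with the number of ribosomal protein models of 1 coding exon (circles) and of 3 or more (squares) against annotated scaffold length on the left and the number of all gene models on the right. Circles rise along the length axis to 24 models at 103 Mb, and squares stay at 7 or fewer.

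Single-exon models also lay in gene-poorer surroundings than their intron-containing relatives. Within 1 Mb of a single-exon model's start there were 17 other gene starts in the median (quartiles 9 and 26), against 32.5 for ribosomal protein models with 3 or more coding exons (quartiles 19 and 57.8). Other single-exon models of the annotation had a median of 13 and other models with 3 or more coding exons 29.

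Inside other genes lay 69 of the 405 single-exon models (17.04%), where the share over all 5771 single-exon models was 6.15%. The 69 models lay in 69 different host genes, 68 of them wholly between coding exons. Long hosts included DCC, the netrin receptor gene, with 672 kb and a 276-base RPL37A model, and FBXL17, a ubiquitin ligase component, with 515 kb and a 459-base RPL6_copy4 model. All 69 ran on the strand opposite to their host. The deposited annotation holds 0 overlapping pairs of models on the same strand and 818 on opposite strands, so a copy inside a gene on its own strand is not among the 69.

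Some single-exon models of 1 symbol lay near each other, with 8 pairs of neighbours less than 1 Mb apart. Such pairs were not counted for other symbols, so it is not known whether ribosomal proteins differ in them. RPL21_copy7 and RPL21_copy4 on scaffold 8 were 493 bases apart on the same strand, each of 480 bases and matched from base 44 to 523 of the target. RPL21_copy19 and RPL21_copy18 on scaffold 7, of the same size and match, were 27.1 kb apart. RPL13A_copy4 and RPL13A_copy5 on scaffold 21 were 2.78 kb apart and matched much the same part. By contrast, RPL5_copy6 and RPL5_copy7 on scaffold 23, 1 base apart, matched bases 79 to 594 and 616 to 969 of the target, and RPL7A_copy15 and RPL7A_copy5 on scaffold 2, 14 bases apart, also matched separate parts. RPL10_copy6 and RPL10_copy9 on scaffold 14, 1.90 kb apart on opposite strands, matched bases 341 to 722 and 724 to 999. Each of these pairs was counted as 2 models.

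The intron-containing models were then checked against the position of the gene of the same name in RefSeq's annotation of the later mole build MPIMG_talOcc4v2.1. For each symbol the nearest genes on both sides in RefSeq that have 1 model in both annotations were found, and the stretch between them in talOcc3 was searched. RefSeq names 72 of the 79 symbols. It does not list RPL17, RPL21, RPL22L1, RPL36, RPL37A, RPL41 or RPS24 by symbol, so the places of their models were not checked. For 69 of the 72 both neighbours lay on 1 talOcc3 scaffold. In 55 of the 69 the stretch held a model of the symbol with 3 or more coding exons. RPL9 with 6 coding exons, for example, lay between KLB and LIAS on scaffold 10, at 43398204 to 43400837. RPL12 with 8 coding exons lay between LRSAM1 and ZNF79 on scaffold 15, RPS6, the substrate of S6 kinase, between ACER2 and DENND4C on the same scaffold, and RPS19, the gene most often mutated in Diamond-Blackfan anaemia, between DMRTC2 and CD79A on scaffold 36. Of these 55 models, 42 carried the plain symbol, which went to a best-scoring model, and 13 a copy suffix. For RPS7 the neighbours, ALLC and RNASEH1, lay on scaffolds 14 and 2, with the intron-containing model on scaffold 2.

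For 14 symbols no model of 3 or more coding exons was annotated, among them RPL13, RPL14, RPL23, RPL23A, RPL30, RPL34, RPL35, RPL35A, RPL36, RPL38, RPL41, RPS13 and RPS27. In 10 of them the place that RefSeq gives the gene was present in talOcc3 between the same neighbours and held no model of the symbol. The place of RPL30, a large subunit protein gene, between ERICH5 and MATN2 on scaffold 22, was empty over 28.1 kb, and all 6 RPL30 models, 344 or 345 bases long, were single-exon. The places of RPL14 between EIF1B and ZNF619, of RPL23A between RAB34 and TLCD1 and of RPL35 between ARPC5L and WDR38 were likewise without any model. Those of RPL13, RPL23, RPL34, RPL38 and RPS13 held models of other symbols. RPL35A had a 2-exon model of 303 bases at its place between IQCG and LMLN, and the RefSeq neighbours of RPS27, TPM3 and JTB, lay on scaffolds 21 and 43. RefSeq does not list RPL36 or RPL41 by symbol. RPL28 and RPL39 had models of 3 or more coding exons, but none at their RefSeq place, and RPS15 had only a 2-exon model there.

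Of 80 cytosolic ribosomal protein genes listed from general knowledge, 77 bear an RPL or RPS symbol, and 74 of these had a model. The 3 without one were RPS10, RPS21 and RPLP2, an acidic protein of the stalk that recruits elongation factors. RefSeq names all 3, and their places, between NUDT3 and PACSIN1, OSBPL2 and CABLES2, and PIDD1 and PNPLA2, were present in talOcc3 without a model of the symbol. The other stalk genes were annotated, RPLP0 with 7 coding exons and RPLP1_copy7 with 3. Proteins with other names included FAU, with 1 single-exon model, and the scaffold protein RACK1, with 2 models, the longer one with 9 coding exons. In RefSeq, 24 of the 72 named symbols had a small nucleolar RNA gene within their span, among them RPL4, RPL7A and RPL13A with 4 each. The spans of RPL23, RPL23A, RPL30 and RPL38, which lack an intron-containing model in talOcc3, held 1 each. All member spans together held 46 of RefSeq's 614 small nucleolar RNA genes (7.49%). The share of all RefSeq genes with one was not counted, so the 24 have no background beside them.

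In 9 symbols there were 2 models of 3 or more coding exons. The RPL22L1 models, of a paralog of RPL22, had 5 coding exons each and scores of 602 and 601, with the same match from base 1 to 458 of the target, and lay at 73997123 to 74001063 and 18192319 to 18201511 of scaffold 4, on opposite strands. RPL10 had its 6-exon model on scaffold 30 between DNASE1L1 and EMD, and RPL10_copy2 with 3 coding exons on scaffold 2 scored 94.1% of it. In RPL9, the other model, RPL9_copy28, matched bases 218 to 495 of the target, where RPL9 matched 218 to 796, and scored 46.4% of it. In RPL27A, RPL28, RPS19 and RPS25 the weaker model scored from 22.4% to 64.0% of the best of its symbol. The weaker models of RPL37A and RPS15 scored 79.8% and 79.3%. The 5 paralog symbols RPL3L, RPL7L1, RPL22L1, RPL26L1 and RPS27L together had 10 models, of which 4 were single-exon, and each had a model of 3 or more coding exons.

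Models with 2 coding exons numbered 35. The gap between their exons ran from 32 to 46382 bases with a median of 316, and it was under 50 bases in 7. Joining exons less than 50 bases apart would bring the single-exon models to 412.

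Around FGF9, 3 ribosomal protein models started within 3 Mb, all single-exon and all on the promoter side, among 47 other models. RPL12_copy5, at 12334972 to 12335532 of scaffold 38 on the minus strand, lay 574.2 kb from the FGF9 start between LATS2 and an XPO4 model. It had 561 coding bases and scored 78.5% of the 8-exon RPL12. RPL9_copy2, at 13672244 to 13672819 on the plus strand and 1.91 Mb from FGF9, lay between MPHOSPH8 and PARP4. It had 576 bases, matched bases 218 to 792 of the RPL9 target and scored 99.8% of the 6-exon RPL9. RPL9_copy22, at 13846307 to 13846842 on the minus strand, had 536 bases and scored 79.1%. Around SALL1, for which the protocol also gives viewpoint primers, there were 0 ribosomal protein models within 3 Mb among 64 other models. Windows around other genes were not counted, so the 3 and the 0 have no background beside them.

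Finally, single-exon models were followed into the RefSeq annotation through their neighbours. Stretches between 2 genes with 1 model in both annotations were used where talOcc3 held a single-exon ribosomal protein model and nothing else, 117 in all. RefSeq placed a pseudogene in 67 of them (57.3%) and a protein-coding gene in 52 (44.4%), against 9.37% and 10.01% of 8418 stretches with no deposited model. The ribosomal protein stretches were also longer, with a median of 127 kb against 19.0 kb. Among stretches within the quartiles of the ribosomal protein ones in length, a pseudogene lay in 31 of 59 (52.5%), against 253 of 1297 (19.5%). Other single-exon models had a RefSeq pseudogene in 41.2% of 345 stretches and a protein-coding gene in 45.2%, so for protein-coding genes the ribosomal protein stretches, with 44.4%, were close to them.

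What RefSeq placed there varied with the length of the model. Where the model matched at least 90% of the range that models of its symbol reached on the target, and its length was a multiple of 3, a protein-coding gene was present in 35 of 48 stretches (72.9%) and a pseudogene in 20 (41.7%). Without models alone on their target these were 35 of 46 (76.1%) and 19 (41.3%), and the counts of the next class were the same. Where it matched as much but its length was no multiple of 3, a protein-coding gene was present in 6 of 26 (23.1%) and a pseudogene in 20 (76.9%). Where it matched less, the numbers were 11 of 43 (25.6%) and 27 (62.8%). The stretch of RPL9_copy2 near FGF9, of 90.4 kb, held 1 RefSeq protein-coding gene and 0 pseudogenes. RefSeq features were matched by place only, so a feature in a stretch need not be the model itself.

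**Figure D5:**
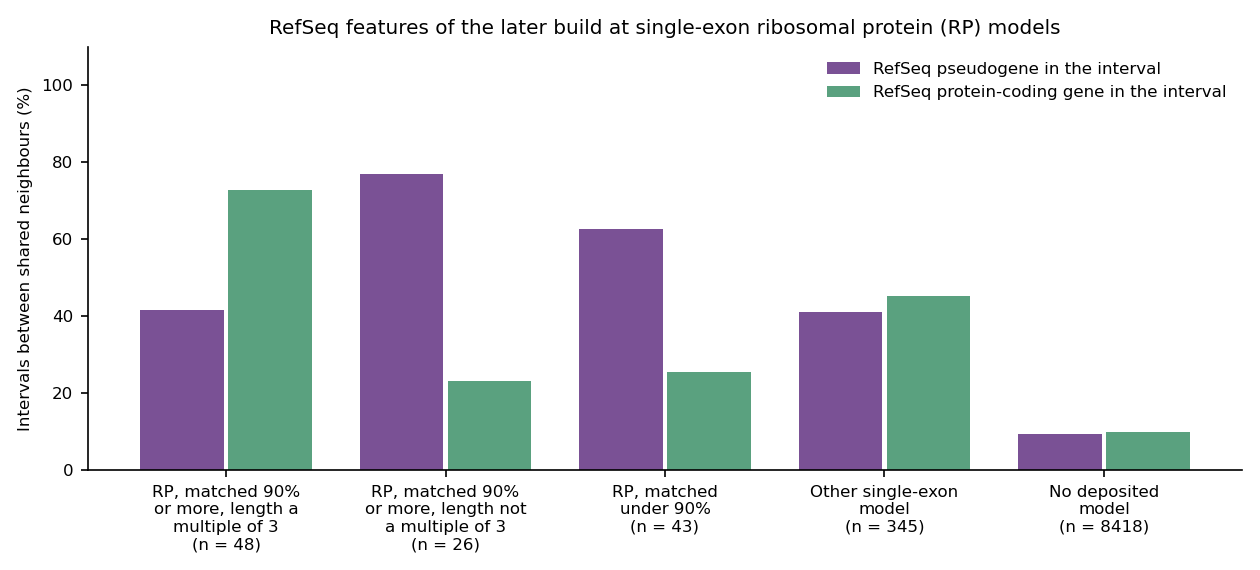
Paired bars give the percentage of stretches between shared neighbour genes in which RefSeq's later build has a pseudogene (left bar) or a protein-coding gene (right bar), for 3 classes of single-exon ribosomal protein models, for other single-exon models and for stretches with no deposited model, with the number of stretches under each pair. Protein-coding genes are present in 72.9% of stretches where the model matched at least 90% of the range reached by its symbol's models and its length was a multiple of 3, and in 23.1% where the length was not.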

How the data were processed

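The sources held 1 table, the deposited annotation of build talOcc3 with gene, mRNA, exon and CDS records. Per the file headers and columns, the authors gave each model the program that made it (EVM, exonerate or ALN) and, for transcripts, a deposited score with the matched part of a named target. The sources do not state how scores were made, so they were compared only within a symbol. Positions are deposited values of another kind, counted from 1. Per the submitters' processing notes, BWA mapped the 4C reads, which were not analysed here.

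Each gene had 1 transcript, and coding exons and coding length were summed from its CDS records. A symbol was the model name without copy suffix or lowConf mark, and names consisting of a LOC identifier or model number carried none. Scaffold length was the last annotated base. RefSeq's table of the later build gave names and neighbours, and none of its positions is printed. A RefSeq sequence was taken to end where start positions fell, and neighbours had to lie within 30 features. Python 3.11.15, pandas 2.3.3 and scipy 1.17.1 were used. On simulated models the routines recovered symbol, exon number and coding length in 862 of 862. The members and gene lists were chosen with earlier results of these data known. Values are given for symbols with most models, with exactly 1 model, with 0 or 2 intron-containing models, near FGF9 or SALL1, without a model, and for long hosts; further ones were chosen after their values were seen. Some genes that these rules take are not reported here. No sequence table was used here.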

Additional observations from a re-analysis of the deposited data

How the results depend on the processing

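Of 38 alternative values, 34 stayed within 1.5 times the reported count or within the 95% Wilson interval of the reported percentage. The numbers of ribosomal protein models (444 to 514), of symbols with at least 2 models (65 to 69) and of symbols with a model of 3 or more coding exons (60 to 65) were among these. Without exonerate models, single-exon ribosomal protein models numbered 42 in place of 405, since exonerate made the others. The share of single-exon models at 90% or more of the longest model, 45.7%, was 53.1% with a limit of 80%, by construction, and 51.5% relative to the best-scoring model of 3 or more coding exons. Single-exon models that lacked only the 5′ end numbered 63, and 38 with ends set by single-exon models only. The last 2 settings, the 60-base tolerance, leaving out models alone on their target (also 63) and leaving out the paralogs were chosen after seeing the data. No ribosomal protein model was marked lowConf and none overlapped another on its strand, so these 2 settings could change nothing. Leaving out models alone on their target could not change the 63 either, since such models match in full. The values of all these settings count among the 34 although they were fixed in advance. The Wilson interval treats the single-exon models as independent, which was not tested. Length relative to RefSeq proteins was not run, as no protein table was used here. No paired analysis was possible because no result comes from the 2 libraries. With 1 library per tissue none was left out. Assembly and annotation, not read depth, limit these counts.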
